A study of Mus musculus with 12 samples.

Results

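Contacts of the En2 and Cnpy1 genes were read from a chromosome conformation capture carbon copy (5C) map of the mouse Shh locus on chromosome 5. In 5C, crosslinked chromatin is cut, here with HindIII, and religated, and joined fragment ends are counted through pairs of ligated oligonucleotides. The members were all fragment pairs with the midpoint of 1 fragment in mm9 chr5:28475000-28570000, a window of 95 kb over En2 and Cnpy1, and the midpoint of the other fragment outside it. There were 2887 such pairs among the 28980 pairs of the region that were above 0 in any library, a share of 9.96%. They start from 18 HindIII fragments, 9 on each side of the middle of the window at 28522500. The side nearer Insig1, called the En2 side, gave 1437 pairs, and the other, called the Cnpy1 side, gave 1450. Partners were split by position into 165 pairs toward Insig1, 421 between the window and the Shh domain, 1696 inside the Shh domain (28780000 to 29720000) and 605 in the far flank beyond it. Pairs that share a fragment are not independent of each other, and every comparison of conditions was made over biological replicates.

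En2 encodes a homeobox transcription factor of the developing midbrain and hindbrain, and Cnpy1 encodes a regulator of fibroblast growth factor signalling that acts where those regions meet. Both lie outside the block of chromatin that holds Shh, which encodes a secreted signalling protein, and its distant enhancers. Such a block, a topological domain, is a stretch whose sequences contact each other more often than they contact the neighbouring stretch. Within it lie SBE6, SBE4 and SBE2, enhancers that drive Shh in the nervous system, and ZRS, the limb enhancer that sits inside the gene Lmbr1. In the order of RefSeq's GRCm38 annotation the region runs Insig1, En2, Cnpy1, Rbm33, Shh, Rnf32, Lmbr1, Nom1, Mnx1 and Ube3c.

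The 5 groups were 46c mouse embryonic stem cells (ESC, 2 biological replicates), neural progenitor cells made from them in N2B27 medium over 7 days (NPC, 2), and 46c ESC carrying tSBE6-Vp64 (1), tSBE2-Vp64 (1) or tSBE(6+2-Vp64) (2). From general knowledge, the t stands for a TALE, a protein built to bind a chosen DNA sequence, and Vp64 for a domain that activates transcription. The labels do not give the promoter that drives these proteins or the share of cells that carried them, and cells with a protein lacking the activator were not analysed here. All 4 comparisons use the same ESC replicates and so are not independent of each other. tSBE6-Vp64 and tSBE2-Vp64 have 1 replicate each, so every SE and p given for them assumes the spread of the other groups. The assay holds no expression values, so the cell types were not checked against marker genes. Each library is a bulk population, in which fewer cells with a contact and fewer contacts per cell cannot be told apart.

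The 11 distinct libraries held 0.978 to 48.1 M reads (M, mega) as implied by the values, of which 36.0 to 2453 k (k, kilo) belonged to members. The lowest depths were both in NPC: 0.978 M in replicate 1, technical replicate 2, and 1.87 M in replicate 2. With the repeated library counted once, that 1.87 M library, with 69.9 k member reads, was all of NPC replicate 2. The other NPC library held 43.2 M, and the ESC replicates 22.0 and 20.7 M. Members took 2.89 to 7.45% of a library, and 27.9 to 99.7% of them were above 0 in a given library. Reads carry no molecular identifiers, so depth does not give the number of distinct joined fragments. The share of members above 0 did not always follow depth. It was 49.9% in the NPC library of 0.978 M and 44.5% in ESC replicate 2, at 20.7 M. The fraction of all signal over 50 kb was 37.3 and 40.6% in ESC, and 69.0 to 76.4% in the NPC libraries. It was 43.2% in tSBE6-Vp64, 63.4% in tSBE2-Vp64 and 30.2 to 82.9% in the 4 tSBE(6+2-Vp64) libraries. The library of replicate 1, technical replicate 1 of that group stands apart, with 82.9% of its signal over 50 kb and 99.7% of members above 0. Signal is given throughout as a mean per fragment pair, per 1000 of the library total.

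In every replicate, partners toward Insig1 and between the window and the domain had a higher mean signal than partners inside the domain. The bins next to the window were not always the highest. The bin 860 kb out, which holds the pair 883 kb apart described further on, read 0.319 and 0.312 in NPC, and that 1040 kb out, which holds the pair 1064 kb apart, read 0.675 in tSBE(6+2-Vp64) replicate 2. The bin of 20 kb next to the window on the Shh side held a mean signal of 0.0974 and 0.0814 in the ESC replicates. At 60 kb from the window the ESC values were 0.0594 and 0.0483. The bin that holds the start of the Shh domain, 220 kb out, still gave 0.0223 and 0.0218, and the next bin, at 240 kb, gave 0.00691 and 0.00598.

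The NPC replicates were lower over the same stretch. They gave 0.0301 and 0.0471 in the nearest bin, 0.0151 and 0.0236 at 60 kb, and 0.00550 and 0.00422 in the bin at the start of the domain, in each case below both ESC replicates. At 240 kb they gave 0.00737 and 0.00533, on either side of the ESC values. Of the 11 bins between window and domain, 9 were lower in both NPC replicates than in both ESC replicates and 0 were higher. Of the 45 bins inside the domain, 10 were lower and 11 were higher without overlap. Over all pairs of 20-kb bins in the region, a finer unit, 28.6% were lower and 14.2% higher in NPC. Profiles of other windows were not compared here, so whether these counts are particular to this window was not tested.

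**Figure D1:**
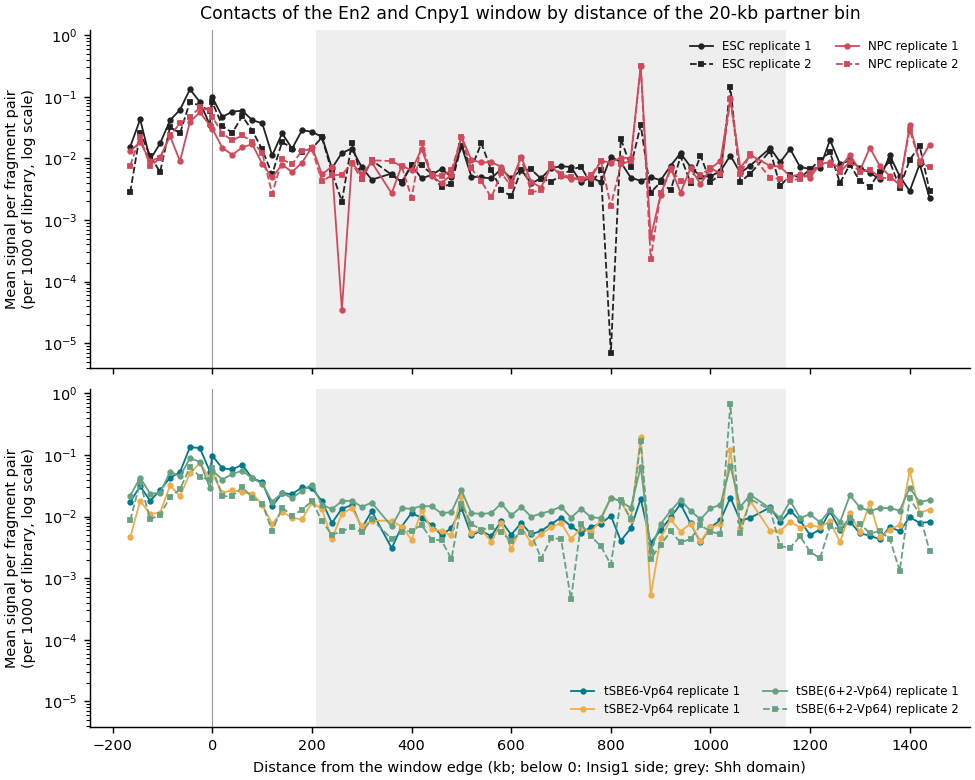
Mean signal of the En2 and Cnpy1 window per fragment pair (per 1000 of the library, log scale) in bins of 20 kb, against the distance of the bin from the window edge in kb, for each group; the Shh domain is shaded grey. In 9 of the 11 bins between the window and the domain, both NPC replicates lie below both ESC replicates. In the bin 60 kb out, ESC replicates gave 0.0594 and 0.0483 and NPC replicates 0.0151 and 0.0236.

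Set by partner position, the 421 pairs between the window and the domain held a mean signal of 0.0404 and 0.0281 in ESC and 0.0129 and 0.0177 in NPC. Both NPC replicates were below both ESC replicates. The single tSBE6-Vp64 replicate gave 0.0437, above both ESC values, and the single tSBE2-Vp64 replicate gave 0.0202, below both. The tSBE(6+2-Vp64) replicates gave 0.0356 and 0.0215, which overlap ESC. Both sides of the window had the lower NPC level. On the En2 side the values were 0.0347 and 0.0195 in ESC and 0.00880 and 0.0139 in NPC, and on the Cnpy1 side 0.0461 and 0.0368 in ESC and 0.0170 and 0.0215 in NPC.

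The same contacts were then divided by the mean of all other pairs of the region at the same distance in that library. The stretch between window and domain stood at 1.10 and 0.845 in ESC and at 0.290 and 0.395 in NPC. The ratio was 1.10 in tSBE6-Vp64, 0.516 in tSBE2-Vp64, and 0.878 and 0.703 in tSBE(6+2-Vp64). The expected level here includes 21 single pairs of the region that lie over 50 kb apart and hold more than 0.5% of some library. Without those pairs the ratio was 1.11 and 1.09 in ESC and 0.673 and 0.810 in NPC, still without overlap but with a smaller gap. The 10 highest pairs of the whole region held 5.81 and 12.5% of all signal in ESC and 42.2 and 38.2% in NPC, which lowers every other value of an NPC library, and their part in the lower NPC levels was not tested beyond this.

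Contacts toward Insig1, a regulator of sterol synthesis, also had a lower mean signal in both NPC replicates than in both ESC replicates. Divided by the level expected for the distance, they stood at 1.36 and 1.25 in ESC and 0.550 and 0.718 in NPC. Once the long-range pairs were left out, this ratio was 1.37 and 1.75 in ESC and 1.30 and 1.48 in NPC, which overlap. The mean signal of these contacts was 0.0454 and 0.0369 in ESC, 0.0246 and 0.0322 in NPC, 0.0560 in tSBE6-Vp64, 0.0307 in tSBE2-Vp64, and 0.0434 and 0.0287 in tSBE(6+2-Vp64). Partners inside the Shh domain stood at 0.00653 and 0.00826 in ESC, 0.0122 and 0.0114 in NPC, 0.00796 in tSBE6-Vp64, 0.0111 in tSBE2-Vp64, and 0.0146 and 0.0153 in tSBE(6+2-Vp64). Both NPC and both tSBE(6+2-Vp64) replicates were above both ESC replicates there. Without the long-range pairs over the 0.5% limit, the values were 0.00653 and 0.00642 in ESC, 0.00684 and 0.00610 in NPC, and 0.0132 and 0.00595 in tSBE(6+2-Vp64), and each group overlapped ESC. The first of the tSBE(6+2-Vp64) values stayed above both ESC replicates and averages 0.0189 in the library that stands apart and 0.00744 in its technical replicate.

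As shares of all signal leaving the window, the Shh domain took 27.3 and 38.4% in ESC (mean 32.8 ± 7.81, SD, n = 2) and 56.6 and 51.6% in NPC (54.1 ± 3.53, n = 2). It took 29.6% in tSBE6-Vp64, 46.9% in tSBE2-Vp64, and 44.1 and 59.0% in tSBE(6+2-Vp64). The NPC share was above that of ESC by 21.3 percentage points, and the tSBE(6+2-Vp64) share by 18.7 points. In both comparisons the groups did not overlap, and the exact two-sided permutation test gave p = 0.333, the smallest that 2 replicates against 2 allow. The stretch between window and domain took 42.0 and 32.5% in ESC and 14.9 and 20.0% in NPC. The flank toward Insig1 took 18.5 and 16.7% in ESC and 11.1 and 14.2% in NPC, and the far flank 12.2 and 12.5% in ESC and 17.3 and 14.2% in NPC. Among the tSBE(6+2-Vp64) libraries the domain share was 44.7, 42.7, 70.2 and 36.2%, the highest in replicate 2, technical replicate 1. Without replicate 2 the group was 11.2 points above ESC, and without the library that stands apart it was 18.0 points above.

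**Figure D2:**
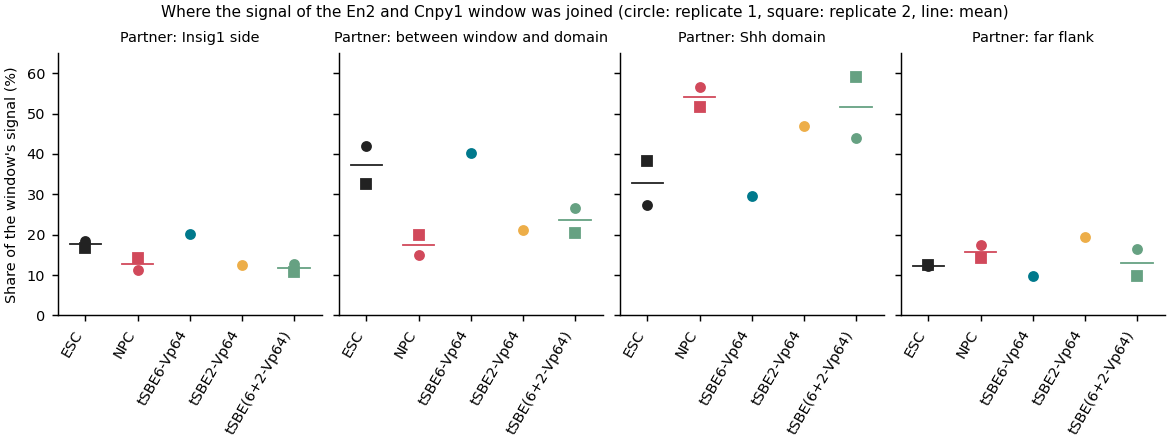
Share of the signal leaving the En2 and Cnpy1 window (percent) that goes to each class of partner, by biological replicate. The Shh domain takes 27.3 and 38.4% in ESC and 56.6 and 51.6% in NPC, while the stretch between window and domain takes 42.0 and 32.5% in ESC and 14.9 and 20.0% in NPC.

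The window itself holds 2 of the 21 long-range pairs above that limit, both with partners in the Shh domain. Fragment 28542833-28543234 with 29606038-29607875, 1064 kb apart, had a signal of 0.0179 and 2.34 in ESC, 1.49 and 1.54 in the NPC replicates, 0.0694 in tSBE6-Vp64 and 1.97 in tSBE2-Vp64. Its 4 tSBE(6+2-Vp64) libraries read 0.0579 and 1.85 in replicate 1 and 22.7 and 1.33 in replicate 2, so technical replicates of the same biological replicate differed more than the ESC and NPC means did. Fragment 28547730-28548357 with 29426352-29436153, 883 kb apart, was at 0 and 0.781 in ESC, 7.54, 7.54 and 7.40 in the NPC libraries, 0.326 in tSBE6-Vp64 and 4.66 in tSBE2-Vp64. It read 1.16, 1.61, 7.20 and 0.632 in the tSBE(6+2-Vp64) libraries, and every NPC library was above both ESC libraries.

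Both pairs start on the Cnpy1 side of the window. Together they held 0.0442 and 8.56% of member signal in ESC, 24.8 and 24.0% in NPC, 0.868% in tSBE6-Vp64, 16.5% in tSBE2-Vp64, and 4.17 and 36.2% in tSBE(6+2-Vp64). In the library where each was highest, they stood 2067 and 1790 times above neighbouring pairs. Without them the NPC share of the domain exceeded that of ESC by 9.40 points and the tSBE(6+2-Vp64) share by 8.76 points.

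The En2 side holds neither pair. Its domain share was 27.8 and 30.9% in ESC and 42.1 and 35.2% in NPC, without overlap. Its mean signal per pair to the domain was 0.00666 and 0.00557 in ESC and 0.00702 and 0.00640 in NPC, which overlap. On the Cnpy1 side the domain share was 26.8 and 43.7% in ESC and 65.8 and 63.1% in NPC, or 26.7 and 34.0% against 42.5 and 37.7% without the long-range pairs.

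Set against distance, partners inside the domain compared with those outside it had a log2 ratio of observed over expected of -0.743 and -0.336 in ESC, and 0.272 and 0.0875 in NPC. Both parts of this ratio were lower in NPC. Inside the domain, observed over expected was 0.697 and 0.713 in ESC and 0.518 and 0.549 in NPC. Outside it, where the fall was larger, the values were 1.17 and 0.900 in ESC and 0.429 and 0.517 in NPC. The inside level without the long-range pairs was 0.700 and 0.790 in ESC and 0.661 and 0.639 in NPC. For the log2 ratio, the NPC mean was above the ESC mean by 0.72, with p = 0.333 by the exact two-sided permutation test. Without the long-range pairs the difference was 0.10, with p = 0.667 by the same exact test. The replicates of tSBE(6+2-Vp64) stood at -0.335 and 0.553, a mean 0.65 above ESC (exact p = 0.333), or 0.23 without those pairs. The lower of them, -0.335, and the higher ESC value, -0.336, all but coincide, and the exact p was 0.667 without the library that stands apart, with the deepest technical replicate and with partners over 50 kb away. The difference was 0.20 without replicate 2 of tSBE(6+2-Vp64) and 1.09 without replicate 1. The single replicates stood at -0.685 for tSBE6-Vp64 and -0.250 for tSBE2-Vp64.

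**Figure D3:**
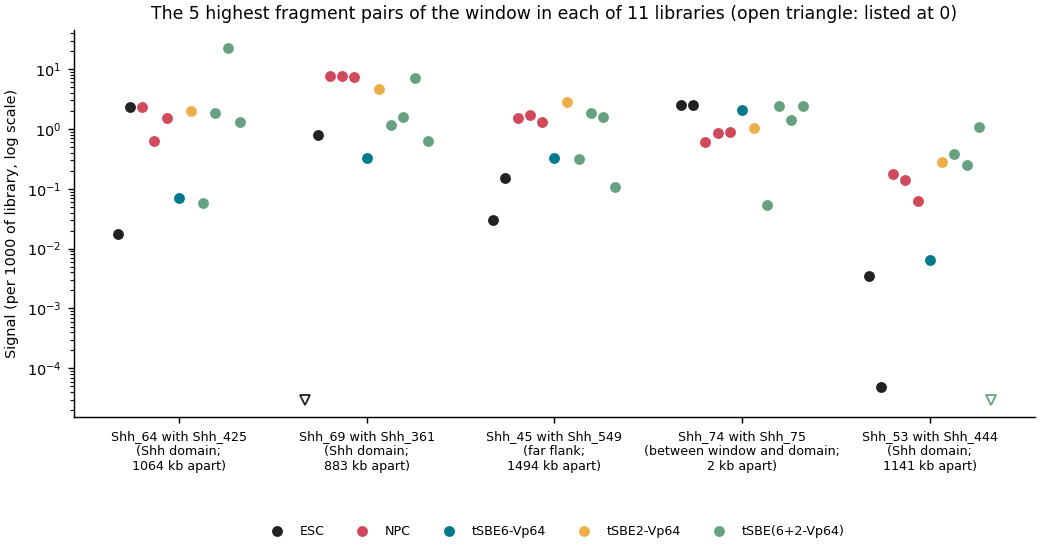
Signal (per 1000 of the library, log scale) of the 5 member fragment pairs that are highest in any library, 1 point per library, with an open triangle where the pair is listed at 0. The pair 883 kb apart sits between 7.40 and 7.54 in NPC and at 0 and 0.781 in ESC, while the pair 1064 kb apart reads from 0.0579 to 22.7 within tSBE(6+2-Vp64).

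Of the other 3 among the 5 highest fragment pairs, 1 joins the En2 side to the far flank. It pairs fragment 28484053-28486216 with 29978716-29979319, 1494 kb apart, at 0.0301 and 0.152 in ESC, 1.62 and 1.31 in NPC, 0.331 in tSBE6-Vp64, 2.80 in tSBE2-Vp64, and 1.09 and 0.844 in tSBE(6+2-Vp64). All 6 other replicates were above both ESC replicates. It stood 408 times above its neighbouring pairs in the library where it was highest.

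Another joins the last fragment of the window, 28566955-28570463, to the adjoining fragment 28570464-28571000. Its signal was 2.47 and 2.56 in ESC and 0.730 and 0.904 in NPC, without overlap. It was 2.09 in tSBE6-Vp64, 1.04 in tSBE2-Vp64, and 1.25 and 1.93 in tSBE(6+2-Vp64). This pair of adjoining fragments is itself part of the stretch toward Shh, where 9 of the 11 bins were lower in NPC. Its lower NPC signal is therefore not separate from the values of that stretch.

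The last joins fragment 28511000-28511814 on the En2 side to 29652798-29652907 in the window around the limb enhancer ZRS. Its signal was 0.00346 and 4.84e-05 in ESC, 0.159 and 0.0626 in NPC, 0.00656 in tSBE6-Vp64, 0.279 in tSBE2-Vp64, and 0.316 and 0.532 in tSBE(6+2-Vp64). The second of the 2 technical replicates of tSBE(6+2-Vp64) replicate 2 was at 0 while the first read 1.06. Across all members, the 10 highest pairs held 14.7 and 24.2% of member signal in ESC, 35.8 and 35.4% in NPC, and 10.9 and 47.1% in tSBE(6+2-Vp64).

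Counted over single fragment pairs, 450 of the 2887 members (15.6%) were lower in both NPC replicates than in both ESC replicates, against 19.4% of all pairs of the region. Higher without overlap were 315 members (10.9%), against 10.7% of all pairs. The members as a whole were thus close to the region in both directions. Among the 421 pairs between window and domain, 138 (32.8%) were lower and 11 (2.61%) were higher. At distances of 30 to 300 kb, 30.0% of members and 27.4% of the other pairs of the region were lower, so pairs lower in NPC were about as frequent among members as elsewhere in the region at those distances. In tSBE(6+2-Vp64), 483 members (16.7%) were higher and 145 (5.02%) lower than both ESC replicates, against 16.2 and 5.36% of all pairs. Without the library that stands apart, 271 members (9.39%) were higher and 380 (13.2%) lower, against 9.61 and 14.5% of all pairs, so that library decided which direction was more frequent.

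Element windows reach 20 kb on both sides of a position known only roughly in mm9, and gave the contacts of En2 and of Cnpy1 with each named gene and enhancer. The smallest p of the 24 element pairs in NPC was that of En2 with Shh. The 30 fragment pairs of En2 with Shh had a mean signal of 0.0223 and 0.0265 in ESC (0.0244 ± 0.00295, SD, n = 2) and 0.00405 and 0.00549 in NPC (0.00477 ± 0.00101, n = 2). Both NPC replicates lay far below both ESC replicates. The values were 0.0186 in tSBE6-Vp64, 0.0127 in tSBE2-Vp64, and 0.0153 and 0.00633 in tSBE(6+2-Vp64), all below both ESC replicates as well.

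On the log2(value + 0.00294) scale the NPC difference was -1.83 (SE 0.56, 95% interval -2.93 to -0.72), with a Benjamini-Hochberg adjusted p of 0.0564 by limma, which missed 0.05. With the smaller pseudocount of the bin pairs, a setting chosen after the values were seen, the difference was -2.19 and the limma adjusted p 0.0464. The difference was below 0 in all 23 alternatives, from -2.60 to -0.86, and passed in 10, with adjusted p from 3.68e-07 to 0.994. Without a replicate of ESC or NPC the difference kept its size, at -1.97 to -1.69, but the limma adjusted p was 0.579 to 0.994. After division by the level expected for the distance it was -1.73, with a limma adjusted p of 0.00907, where the median of all 91 element pairs was -0.53. Without the tSBE(6+2-Vp64) library that stands apart, it was -1.84 with a limma adjusted p of 1.23e-04.

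The highest of the 30 pairs joined fragment 28484053-28486216 to 28782635-28789524 and read 0.255 and 0.147 in ESC and 0.00982 and 0.00481 in NPC. Without it En2 with Shh stood at 0.0143 and 0.0223 in ESC and at 0.00386 and 0.00551 in NPC, still without overlap. Of the 30 pairs, 8 were lower in both NPC replicates than in both ESC replicates and 0 were higher. Over all pairs of the region, 19.4% were lower and 10.7% higher. Among pairs that are not members, 27.4% were lower at 30 to 300 kb and 14.4% at 300 to 1300 kb.

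The other comparisons gave En2 with Shh a log2 difference of -1.07 in tSBE(6+2-Vp64) (95% interval -2.17 to 0.04), -0.34 in tSBE6-Vp64 and -0.80 in tSBE2-Vp64. Their Benjamini-Hochberg adjusted p by limma were 0.987, 0.990 and 0.974. Without the library that stands apart, the tSBE(6+2-Vp64) difference was -1.35 with a limma adjusted p of 0.0112.

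Cnpy1, whose window lies nearer to Shh, had a smaller estimated difference in NPC, and the gap between the genes was not tested. Its 40 fragment pairs with Shh held 0.0143 and 0.0117 in ESC, 0.00753 and 0.00397 in NPC, 0.0136 in tSBE6-Vp64, 0.00845 in tSBE2-Vp64, and 0.0158 and 0.00866 in tSBE(6+2-Vp64). The NPC replicates were below both ESC replicates, with a log2 difference of -0.90 (SE 0.59, 95% interval -2.06 to 0.25) and a limma adjusted p of 0.995. Of the 40 pairs, 11 were lower and 4 higher in NPC without overlap, where 19.4% of all pairs of the region were lower and 10.7% higher. Among pairs 30 to 300 kb apart that are not members, 27.4% were lower. The difference was -0.11 in tSBE(6+2-Vp64), 0.05 in tSBE6-Vp64 and -0.48 in tSBE2-Vp64. With 10 kb windows the differences of NPC, tSBE(6+2-Vp64) and tSBE2-Vp64 turned to 0.016, 0.31 and 0.25. With 40 kb windows that of tSBE(6+2-Vp64) was 0.11, and that of tSBE6-Vp64 turned to -0.27 under distance adjustment, so no direction of Cnpy1 with Shh is settled.

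**Figure D4:**
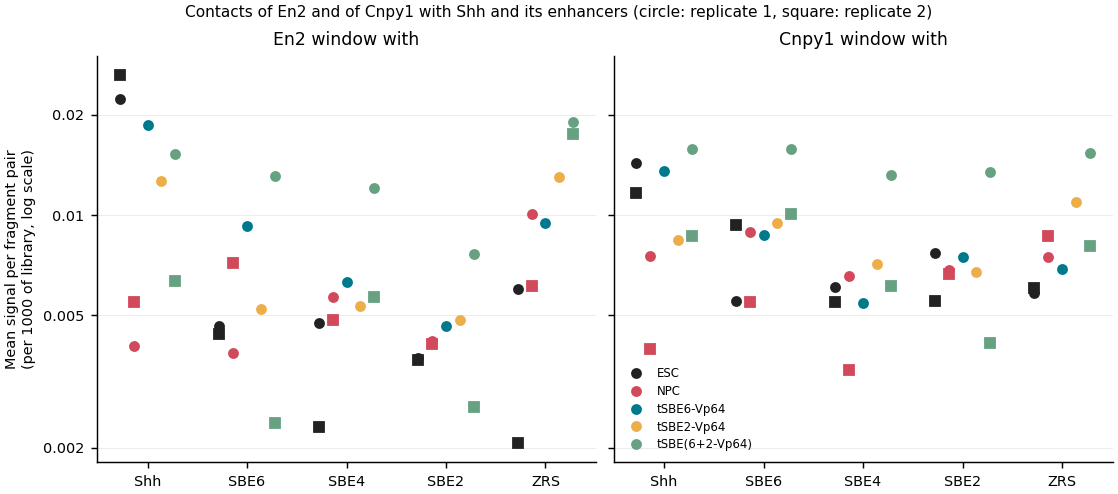
Mean signal per fragment pair (per 1000 of the library, log scale) of the En2 window (left) and the Cnpy1 window (right) with Shh and 4 enhancers, by biological replicate. En2 with Shh reads 0.0223 and 0.0265 in ESC and 0.00405 and 0.00549 in NPC, and the contacts with SBE6 and SBE2 overlap or nearly meet between ESC and NPC.

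Contacts of En2 with the neural enhancers were several times weaker than with Shh in ESC, and close in NPC. En2 with SBE6 read 0.00463 and 0.00439 in ESC and 0.00385 and 0.00719 in NPC, a log2 difference of 0.15. En2 with SBE4 read 0.00475 and 0.00231 in ESC and 0.00567 and 0.00485 in NPC, a difference of 0.37. En2 with SBE2 read 0.00373 and 0.00368 in ESC and 0.00419 and 0.00410 in NPC, a difference of 0.09.

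The same enhancers from Cnpy1 overlapped between ESC and NPC. Cnpy1 with SBE6 read 0.00552 and 0.00934 in ESC and 0.00893 and 0.00549 in NPC, a log2 difference of -0.03. Cnpy1 with SBE4 read 0.00607 and 0.00547 in ESC and 0.00657 and 0.00343 in NPC, a difference of -0.16. Cnpy1 with SBE2 read 0.00768 and 0.00551 in ESC and 0.00684 and 0.00668 in NPC, a difference of 0.03. The signs of these 6 enhancer differences turned under at least 1 scaling or window size, so none has a settled direction.

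Contacts with ZRS were above both ESC replicates in both NPC replicates for each gene. En2 with ZRS read 0.00599 and 0.00206 in ESC, 0.0101 and 0.00614 in NPC, 0.00950 in tSBE6-Vp64, 0.0130 in tSBE2-Vp64, and 0.0190 and 0.0176 in tSBE(6+2-Vp64). Cnpy1 with ZRS read 0.00582 and 0.00603 in ESC and 0.00747 and 0.00865 in NPC. The log2 differences of NPC were 0.70 and 0.31, and the second turned to -0.45 under distance adjustment. The first was 0.28 to 1.15 with a replicate left out and fell to 0.011 over the alternatives. Without the pair 28511000-28511814 with 29652798-29652907, En2 with ZRS read 0.00643 and 0.00476 in NPC and 0.00606 and 0.00211 in ESC, and the groups overlapped.

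En2 with ZRS in tSBE(6+2-Vp64) differed from ESC by 1.67 on the log2 scale (SE 0.59, 95% interval 0.49 to 2.84), with a limma adjusted p of 0.262. The fragment pair 28511000-28511814 with 29652798-29652907, held 39.6 and 72.2% of the value in the 2 replicates. Without it the replicates read 0.0118 and 0.00500 and ESC read 0.00606 and 0.00211, and the groups overlapped. Over its 23 alternatives the difference stayed above 0, from 0.76 to 2.13, and passed in 2, with adjusted p from 0.00534 to 0.992. Without the library that stands apart it was 1.31, with a limma adjusted p of 0.0167.

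The other 14 contacts join En2 or Cnpy1 to the 7 remaining genes. In NPC, 7 of them were below both ESC replicates, 3 above and 4 overlapped. Of all 91 element pairs, 26.4% were below and 19.8% above. Cnpy1 with Insig1 read 0.0545 and 0.0288 in ESC and 0.0121 and 0.0271 in NPC. En2 with Rbm33 read 0.0155 and 0.0131 in ESC and 0.00624 and 0.00801 in NPC, and Cnpy1 with Rbm33 read 0.0156 and 0.00928 in ESC and 0.00604 and 0.00596 in NPC. These partners lie on the same side of the domain as the window.

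Among partners inside the domain, Cnpy1 with Rnf32 was lower in NPC, at 0.00806 and 0.0118 in ESC and 0.00449 and 0.00547 in NPC. It passed in 2 alternatives, with limma adjusted p of 0.0134 with the total beyond 50 kb and 0.0183 over the expected level. A single fragment pair, 28537154-28541461 with 29543894-29545876, held 51.7% of its ESC replicate 2 value, and the contact without that pair was not tested. Beyond the domain both directions were seen. En2 with Nom1 read 0.00538 and 0.00529 in ESC and 0.00746 and 0.00778 in NPC. En2 with Ube3c read 0.00286 and 0.00366 in ESC and 0.00891 and 0.00447 in NPC. Both were higher in NPC without overlap, as was Cnpy1 with Ube3c, while Cnpy1 with Nom1 and with Mnx1 was lower. In NPC replicate 1, a single fragment pair held 41.3% of En2 with Nom1, and another held 48.1% of En2 with Ube3c.

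En2 with Mnx1, a motor neuron homeobox gene, read 0.0207 and 0.0134 in ESC, 0.00845 and 0.0115 in NPC, and 0.00837 and 0.00333 in tSBE(6+2-Vp64), both groups below ESC. Its tSBE(6+2-Vp64) difference was -1.22 on the log2 scale, with a limma adjusted p of 0.987. It passed in 4 alternatives: -1.55 without the library that stands apart (adjusted p 0.00542), -1.63 with the total beyond 50 kb (0.00632), -1.87 over the expected level (0.0332) and -1.57 with the deepest technical replicate (0.00814).

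None of the 24 element pairs of En2 or Cnpy1 passed a Benjamini-Hochberg adjusted p of 0.05 by limma in any of the 4 comparisons, where 0% of all 91 element pairs passed. At an unadjusted p under 0.05, NPC had 1 lower member (En2 with Shh), and tSBE(6+2-Vp64) had 1 higher (En2 with ZRS) and 1 lower (En2 with Mnx1). The background at that level was 2.2% lower in NPC, and 3.3% higher and 1.1% lower in tSBE(6+2-Vp64). Without overlap, 7 of 24 members were higher and 9 lower in NPC, against 19.8% and 26.4% of all element pairs. The median log2 difference of the 24 was -0.02 in NPC, against -0.13 over all 91. In tSBE(6+2-Vp64) it was 0.14 against 0.17, with 5 of 24 higher and 2 lower without overlap, where the background was 12.1 and 4.4%. The median was 0.19 against 0.21 in tSBE6-Vp64 and 0.13 against 0.04 in tSBE2-Vp64. Of the 24 members, 11 were above and 7 below both ESC replicates in tSBE6-Vp64 (background 44 and 15.4%), and 12 and 8 in tSBE2-Vp64 (33 and 26.4%).

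On bins of 20 kb, 320 bin pairs of the window were tested among 3439 in the region. In NPC the lowest median among the classes of partner was that of the stretch between window and domain. Its 44 bin pairs had a median log2 difference of -0.99, with 37 of 44 below 0, where the median over all 3439 was -0.26. Those toward Insig1 had a median of -0.45, those in the domain 0.06 and those in the far flank 0.08. Scaling each library by its pairs over 50 kb moved the median of all bin pairs to -1.01 and of the 44 to -1.79. Division by the level expected for the distance moved them to -0.75 and -0.93, the domain's median to -0.72 and that toward Insig1 to -0.33. The lower level between window and domain was thus seen under each scaling, but after distance adjustment it lay close to the median of the region.

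In tSBE6-Vp64, by contrast, the 44 bin pairs had a median of 0.51, with 38 above 0, against 0.46 over all bin pairs. In tSBE2-Vp64 their median was -0.61, with 30 below 0, against -0.01 over all. In tSBE(6+2-Vp64) it was -0.02 against 0.27, and the domain partners had a median of 0.46, with 133 of 180 above 0. That last value rests on 1 library: without technical replicate 1 of replicate 1, the domain median was -0.07, that of the 44 pairs -0.56 and that of all bin pairs -0.15.

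**Figure D5:**
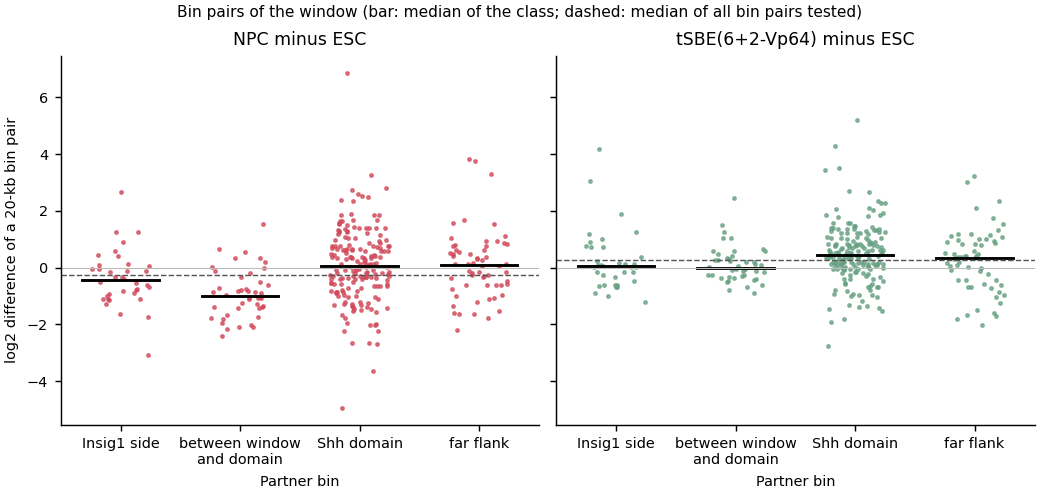
Log2 difference from ESC of each 20-kb bin pair of the En2 and Cnpy1 window, by class of partner, in NPC (left) and tSBE(6+2-Vp64) (right), with the class median as a bar and the median of all 3439 bin pairs dashed. In NPC the class between window and domain has a median of -0.99 against -0.26 over all.

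No bin pair of the window passed a Benjamini-Hochberg adjusted p of 0.05 by limma in any of the 4 comparisons. Of all bin pairs, 0.116% were higher and 0% lower in NPC by that measure, 0.0582% were higher and 0% lower in tSBE(6+2-Vp64), and 0% passed in tSBE6-Vp64 and in tSBE2-Vp64. At an unadjusted p under 0.05, 9 of 320 members were higher and 18 lower in NPC, where the background was 3.17 and 4.86%. Of those 18, 10 were among the 44 pairs between window and domain. The same counts were 10 and 2 in tSBE(6+2-Vp64) (background 3 and 0.145%), 2 and 0 in tSBE6-Vp64 (0.669 and 0.465%), and 5 and 1 in tSBE2-Vp64 (2.5 and 1.25%). Lower in both NPC replicates than in both ESC replicates were 25 of the 44 pairs (56.8%), where the background was 28.6%, and 2 were higher, where it was 14.2%. Against both ESC replicates, 62 of 320 members were higher and 19 lower in tSBE(6+2-Vp64) (background 17.2 and 3.2%), 151 and 62 in tSBE6-Vp64 (45.7 and 15.1%), and 115 and 95 in tSBE2-Vp64 (27.8 and 32.3%).

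Of the bin pairs nearest to passing, that of 28480001 with 29960001, in the far flank, was among the 2 of smallest p in each of the 4 comparisons. Its mean over 10 fragment pairs was 0.00512 and 0.0192 in ESC, 0.171 and 0.138 in NPC, 0.0390 in tSBE6-Vp64, 0.284 in tSBE2-Vp64, and 0.115 and 0.0895 in tSBE(6+2-Vp64). All were above both ESC replicates. The log2 differences were 3.83 in NPC (SE 0.68), 3.23 in tSBE(6+2-Vp64), 1.87 in tSBE6-Vp64 and 4.72 in tSBE2-Vp64, with limma adjusted p of 0.0719, 0.224, 1 and 0.108. The pair 1494 kb apart described above held 94.5% of the NPC value. Without it the differences were 1.34, 0.78, 0.85 and 0.59.

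The bin pair of 28480001 with 28840001, which holds 2 fragment pairs just inside the domain, was lower in NPC. It read 0.0288 and 0.0184 in ESC, 5.79e-06 and 0 in NPC, 0.0358 in tSBE6-Vp64, 0.0307 in tSBE2-Vp64, and 0.0314 and 0.0127 in tSBE(6+2-Vp64). The NPC replicates were the only ones near 0. The log2 difference of -4.94 (SE 0.92, limma adjusted p 0.0796) depends on the pseudocount. Over 19 alternatives it ranged from -9.80 to -2.51 and passed in 4, with adjusted p from 0.00506 to 0.319.

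A further 3 bin pairs were singled out by the smallest p in the other comparisons. That of 28500001 with 29640001, in the ZRS window, read 0.00367 and 1.86e-05 in ESC, 0.0143 and 0.0104 in NPC, and 0.0307 and 0.0428 in tSBE(6+2-Vp64), a difference of 4.30 (SE 1.02, limma adjusted p 0.300). The pair 28511000-28511814 with 29652798-29652907 held 88.8% of its tSBE(6+2-Vp64) value, and without it the difference was 1.30.

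That of 28300001 with 28480001, toward Insig1, holds a single fragment pair. It read 0.00437 and 0 in ESC and 0.0250 in the tSBE6-Vp64 replicate, a difference of 3.69 (SE 1.27, limma adjusted p 1). The other groups were also above both ESC replicates, at 0.00764 and 0.0182 in NPC and 0.0150 in tSBE2-Vp64. In tSBE(6+2-Vp64) the values were 0.0288 and 0.0442, a larger difference of 4.19, so the rise was not particular to tSBE6-Vp64. That of 28540001 with 29420001, in the domain, read 0.000273 and 0.157 in ESC, 0.934 in tSBE2-Vp64, and 1.51 and 1.48 in NPC. Its tSBE2-Vp64 difference was 6.18 (SE 1.97, limma adjusted p 0.722), and the pair 883 kb apart held 99.7% of the tSBE2-Vp64 level. Without ESC replicate 1 the difference was 2.57 and without ESC replicate 2 it was 9.53. Over 20 alternatives the difference ranged from 1.46, without the long-range pairs, to 9.53. As tSBE2-Vp64 has 1 replicate, the p of those runs rests on the spread of other groups and is not given.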

How the data were processed

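The deposited matrices hold a signal per HindIII fragment pair, which the authors scaled to reads per 1000 reads of the library (inferred from the deposited signal, whose low values were 100% whole multiples of a smallest step). Coordinates are mm9, per the labels. The aligner is not given in the sources used here, nor are read filters. The 341 fragments shared by all files were kept and each library was rescaled to 1000. Technical replicates were averaged. An NPC library deposited under 2 names (largest difference 8.26e-06) was counted once, in replicate 1.

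Bin pairs and element pairs were tested as log2(value + pseudocount), the pseudocount being the 5th percentile of values above 0 of each family, 0.000774 and 0.00294, by two-sided limma 3.58.1 in R 4.3.3 (lmFit, then eBayes with a trend), fitting the 5 groups jointly, with 3 residual degrees of freedom. The spread of element pairs was that of the trend alone, with 273 total degrees of freedom, against 12.3 for bin pairs. p-values were Benjamini-Hochberg adjusted within each family (3439 bin pairs, 91 element pairs). Shares were tested by exact permutation (scipy 1.17.1). The limma step was tested on simulated data.

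The window, the elements, the named pairs and the lists were chosen with earlier results of these data known. Element positions are approximate and from knowledge of the locus, and exons and introns were not assigned for want of an mm9 annotation. Named were the contacts of En2 and Cnpy1 with Shh and the enhancers, the bin pairs of smallest p and the 5 highest fragment pairs; the other partner genes were named after their values were seen. Alternatives changed the pseudocount, filter, bin and window size, scaling, trend, replicates and libraries. The runs without 1 library, with the repeated library in both replicates and with the bin pairs' pseudocount for element pairs were added after seeing the data.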

Additional observations from a re-analysis of the deposited data

Results flagged for a closer look

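Among the 4 libraries of tSBE(6+2-Vp64), 3 of 16 measures had 1 library far from the others by Dixon's criterion. Chance meets it in about 1 in 20 groups of 4 independent values. These libraries are technical replicates of 2 biological replicates, and the measures come from the same libraries, so that rate does not hold here. En2 with SBE2 had a mean signal of 0.0116 in replicate 1, technical replicate 1, against 0.00367, 0.00257 and 0.00273 in the others. Cnpy1 with Shh had 0.0225 in the same library, against 0.00912, 0.00746 and 0.00986. The log2 ratio of observed over expected, domain over outside, was 0.982 in replicate 2, technical replicate 1, against -0.306, -0.395 and -0.274. That library also holds the pair 1064 kb apart at 22.7.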

How the results depend on the processing

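The limits first. With 2 replicates a group, no exact test of a share can go below 0.333, and the limma fits have 3 residual degrees of freedom for each pair. Sharing the spread across pairs raised the total used for limma p and intervals to 12.3 for bin pairs and 273 for element pairs. That total treats element pairs as independent, though they share fragments and samples, so small limma p of element pairs call for caution. Each single long-range pair can move a mean, and technical replicates of tSBE(6+2-Vp64) differ widely. The edgeR test on recovered reads was not run, because a single matrix column holds too few low values for the check of whole reads that a count test needs here. Leaving out a replicate makes the lone sample of its group assumed to vary like the others.

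Members that passed numbered 0 in each comparison. Bin pairs of NPC numbered 2 with the pseudocount at the 25th percentile, 2 with pairs above 0 in all replicates, 3 with 40-kb bins, 3 with the replicate block, and 0 to 7 leaving out a replicate, the highest without ESC replicate 1. For tSBE(6+2-Vp64) they numbered 3 (above 0 in all), 3 (40-kb bins), 3 (replicate block) and 0 to 4 (a replicate left out). For tSBE2-Vp64 they numbered 1 (25th percentile), 2 (above 0 in all), 2 (40-kb bins), 2 (replicate block) and 0 to 3, and for tSBE6-Vp64 0 to 2 with a replicate left out. Same-numbered replicates had correlations of -0.0278, 0.21 and -0.00512 in their deviations, 0.21 being that of ESC with tSBE(6+2-Vp64). Each group gives a single replicate difference, so these values cannot decide whether the numbers pair the samples.

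Element pairs of NPC numbered 1 with windows of 10 kb, 7 with the total over pairs beyond 50 kb (all lower), 2 over the expected level, and 1 each without the trend, with the deepest technical replicate, without the library that stands apart, with the repeated library in both replicates and with the bin pairs' pseudocount. Leaving out a replicate gave 0 to 1. For tSBE(6+2-Vp64) they numbered 2 (total beyond 50 kb), 1 (over expected), 2 (deepest replicate) and 3 (without that library). All element pairs of the region moved down under these scalings. With the total beyond 50 kb, the median log2 difference of all 91 was -0.74 in NPC, with 83 below 0. Over the expected level it was -0.53, with 74 below 0. The share of all 91 that passed under the alternatives was not counted, so these numbers do not set the members apart from the region. The distance-adjusted value of tSBE2-Vp64 fell from 0.29 to -0.0154 without the long-range pairs.

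These log2 differences changed sign, and the cause was not tested. With 10 kb windows, NPC gave 0.24 for Cnpy1 with SBE4, 1.38 for Cnpy1 with SBE6, 0.016 for Cnpy1 with Shh, -0.83 for En2 with SBE2 and -0.64 for En2 with SBE4. Cnpy1 with Shh gave 0.31 in tSBE(6+2-Vp64) and 0.25 in tSBE2-Vp64. With 40 kb windows, NPC gave 0.11 for Cnpy1 with SBE6, Cnpy1 with Shh gave 0.11 in tSBE(6+2-Vp64), and En2 with Shh gave 0.077 in tSBE6-Vp64. With the total beyond 50 kb, NPC gave -0.57 for Cnpy1 with SBE2, -0.30 for Cnpy1 with ZRS, and -0.41, -0.15 and -0.39 for En2 with SBE2, SBE4 and SBE6; Cnpy1 with Shh gave -0.074 in tSBE6-Vp64. Over the expected level, NPC gave -0.41 and -0.45 for Cnpy1 with SBE2 and ZRS, and -0.29 and -0.69 for En2 with SBE2 and SBE6; Cnpy1 with Shh gave -0.27 in tSBE6-Vp64. Cnpy1 with SBE6 gave 0.029 with values limited to the 99th percentile. Cnpy1 with Shh gave -0.20 in tSBE6-Vp64 with the replicate block. With the repeated library in both replicates, Cnpy1 with SBE4 gave 0.0036 and Cnpy1 with SBE6 gave 0.11. Leaving out a replicate, NPC ranged from -0.13 to 0.20 for Cnpy1 with SBE2, -0.46 to 0.13 for Cnpy1 with SBE4, -0.30 to 0.24 for Cnpy1 with SBE6 and -0.13 to 0.45 for En2 with SBE6. Cnpy1 with Shh ranged from -0.46 to 0.23 in tSBE(6+2-Vp64) and from -0.066 to 0.18 in tSBE6-Vp64.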
